A study of Mus musculus with 18 samples.

Results

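Interferon-stimulated genes were followed in mouse cancer cells grown with or without fibroblasts. A list of 41 mouse genes was matched by symbol, ignoring case, and all 41 were found in both deposited count tables, of which that for 168FARN lists 24455 genes and that for LLC1 lists 24532. All 41 also passed the filter on low counts, which left 13540 and 12873 genes to test. 168FARN comes from mouse breast cancer and LLC1 from mouse lung cancer, and both were tagged with GFP, grown as hanging-drop spheroids and sorted from the fibroblasts before RNA was extracted. Each line had 3 groups of 3 libraries, 18 in all. The alone group held cancer cells with no fibroblasts. In the WT group the cancer cells were mixed with fibroblasts that carried the control guide sgNS, and in the SG group with fibroblasts in which CRISPR/Cas9 and the guide sgPrrx1 had been used to delete Prrx1, a transcription factor of mesenchymal cells. Both cocultures had 3 fibroblasts per cancer cell. 168FARN cells met MMTV-CAFs, which are cancer-associated fibroblasts from the mammary tumours of MMTV-PyMT mice, whereas LLC1 cells met wound healing fibroblasts isolated from dorsal wounds on day 10. The cancer line and the kind of fibroblast therefore cannot be told apart. A single guide to Prrx1 was used, and how many clones the fibroblast lines held was not stated. Prrx1 was deleted in the fibroblasts only, so its level in the sorted cancer cells does not check the labels, and the alone groups carried no guide at all. The labels do not say that the 3 libraries of a group came from separate cultures, so the p-values measure the spread between these libraries, which may be technical.

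Interferons are secreted proteins that act through surface receptors and the kinases JAK1, JAK2 and TYK2. Type I interferons act through a complex with STAT2 and IRF9 that binds the interferon-stimulated response element (ISRE), and interferon gamma acts through the gamma-activated site (GAS). The genes that answer restrict viruses, sense foreign nucleic acid, and amplify or end the signal, and many tumour cells keep some of them on without any infection.

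Many genes of the family are known to carry these elements, so the sequence upstream of the members was examined first. Promoter windows of 300 bases (250 before and 50 after the start site) were found for 30 of the 41 members in the RefSeq promoter table, on build GRCm38.p6. The ISRE core was searched as GAAANNGAAA and, on the other strand, TTTCNNTTTC, with overlapping matches counted, and the GAS core as TTCNNNGAA, which reads the same on both strands. An ISRE core was present for 17 of the 30 members (56.7%), against 3.99% of the 27025 genes in the table. A GAS core was present for 8 of the 30 (26.7%), against 9.55%. By window rather than by gene, 3.44% and 8.30% of all 32851 windows held a match. A match describes letters and not a bound site. The 160 bases upstream of 6 members are printed here because they show the arrangements that recur in the family, with the matched cores in capitals.

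Isg15, the ubiquitin-like modifier, held 3 overlapping ISRE cores whose first bases lay at -78, -72 and -66 from the start site. The stretch is chr4:156200819-156200978 (minus strand).
Isg15: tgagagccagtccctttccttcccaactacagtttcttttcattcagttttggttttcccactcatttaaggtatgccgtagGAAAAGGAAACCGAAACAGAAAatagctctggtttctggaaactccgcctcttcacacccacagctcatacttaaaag

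Ifit1 and Ifit3, which encode RNA-binding proteins, each held 2 separate ISRE cores, at -104 and -85 in Ifit1 and at -156 and -122 in Ifit3. The stretches are chr19:34640729-34640888 (plus strand) and chr19:34583369-34583528 (plus strand).
Ifit1: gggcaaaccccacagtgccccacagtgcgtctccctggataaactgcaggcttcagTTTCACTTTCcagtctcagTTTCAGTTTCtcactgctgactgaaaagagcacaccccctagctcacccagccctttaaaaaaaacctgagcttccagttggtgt
Ifit3: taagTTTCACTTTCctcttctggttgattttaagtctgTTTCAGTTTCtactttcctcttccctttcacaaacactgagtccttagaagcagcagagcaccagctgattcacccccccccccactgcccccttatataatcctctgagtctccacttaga

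Rsad2, which encodes the antiviral enzyme viperin, held a single ISRE core at -120. The stretch is chr12:26456453-26456612 (minus strand).
Rsad2: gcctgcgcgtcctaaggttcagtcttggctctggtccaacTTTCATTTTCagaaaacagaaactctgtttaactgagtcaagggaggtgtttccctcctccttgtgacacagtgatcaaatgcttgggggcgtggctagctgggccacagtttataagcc

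Irgm2 and Igtp, which encode immunity-related GTPases, held a GAS core just upstream of an ISRE core, at -75 and -64 in Irgm2 and at -45 and -34 in Igtp. The stretches are chr11:58214817-58214976 (plus strand) and chr11:58199396-58199555 (plus strand).
Irgm2: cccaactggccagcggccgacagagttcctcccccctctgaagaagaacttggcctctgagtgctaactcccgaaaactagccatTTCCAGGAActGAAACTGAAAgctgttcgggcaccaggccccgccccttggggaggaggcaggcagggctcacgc
Igtp: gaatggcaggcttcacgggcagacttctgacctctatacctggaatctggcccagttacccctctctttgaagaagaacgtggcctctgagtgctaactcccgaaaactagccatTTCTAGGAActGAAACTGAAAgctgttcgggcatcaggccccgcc

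Tgtp1 had the same order of cores at -88 and -77, Bst2 and Oas1a also held both cores, and Irf1 held a GAS core at -90 and no ISRE core. Neither core was found in the windows of Cmpk2, Ms4a4d, Irf7, Irf9, Oasl1, Oasl2, Ifi44, Trim25, Xaf1 and Dtx3l, which says only that those letters were not in those windows. No window was used for Usp18, Oas2, Mx1, Mx2, Dhx58, Rtp4, Zbp1, Parp9, Parp14, Iigp1 and Gm4951.

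Library totals spanned 48315037 to 68933002 counts for 168FARN, against 66129117 to 103997557 counts for LLC1. Levels are given as CPM, counts per 1000000 counts of the TMM-scaled library, with scaling done within each line, and a gene was called higher or lower at an adjusted p under 0.05 in edgeR's quasi-likelihood test. Between replicates the biological coefficient of variation came to 0.0728 for 168FARN against 0.228 for LLC1. LLC1 SG replicate 3 stood apart from its 2 replicates, and without it the coefficient was 0.112, so the LLC1 counts and the main LLC1 values are given with and without that library. The summed level of 10 fibroblast markers in 168FARN was 122 to 126 CPM alone, 794 to 865 CPM in WT and 219 to 228 CPM in SG, without overlap between the groups. The sum of 10 leukocyte markers in 168FARN also moved with the groups without overlap, at 84.7 to 90.8 CPM alone, 74.3 to 75.3 CPM in WT and 99.2 to 103 CPM in SG, highest where most members were highest. Among them Cd14 was 1.72-fold above alone in SG (adjusted p = 2.21e-08 in edgeR) and Csf1r 3.88-fold (9.30e-05), the latter at no more than 1.52 CPM. Cd68 and Lyz2 went the other way, at 0.585 times (3.59e-06) and 0.786 times (7.55e-04) their alone levels in SG. Ptprc, the general leukocyte marker CD45, was at 0 in all 9 libraries. The sum of 8 epithelial markers, nearly all of it Krt8, was 323 to 345 CPM alone, 360 to 388 CPM in WT and 417 to 422 CPM in SG, in the order that most members followed. Krt19 was at 3.18, 3.18 and 2.90 CPM in WT and at 0 counts in every alone and SG library, while Epcam reached at most 0.122 CPM in 168FARN and was at 0 in LLC1. The sum of 4 endothelial markers was 0.534 to 0.545 CPM alone, 5.65 to 6.74 CPM in WT and 4.08 to 4.64 CPM in SG. Nearly all of it in the cocultures was Cdh5, which was 20.4-fold and 13.4-fold above alone in WT and SG. Pecam1 did not pass against alone in either (adjusted p = 0.612 and 0.172 in edgeR). Tek had too few counts to be tested, and Emcn was at 0 in all 9 libraries. The part of these markers in the results was not tested.

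**Figure D1:**
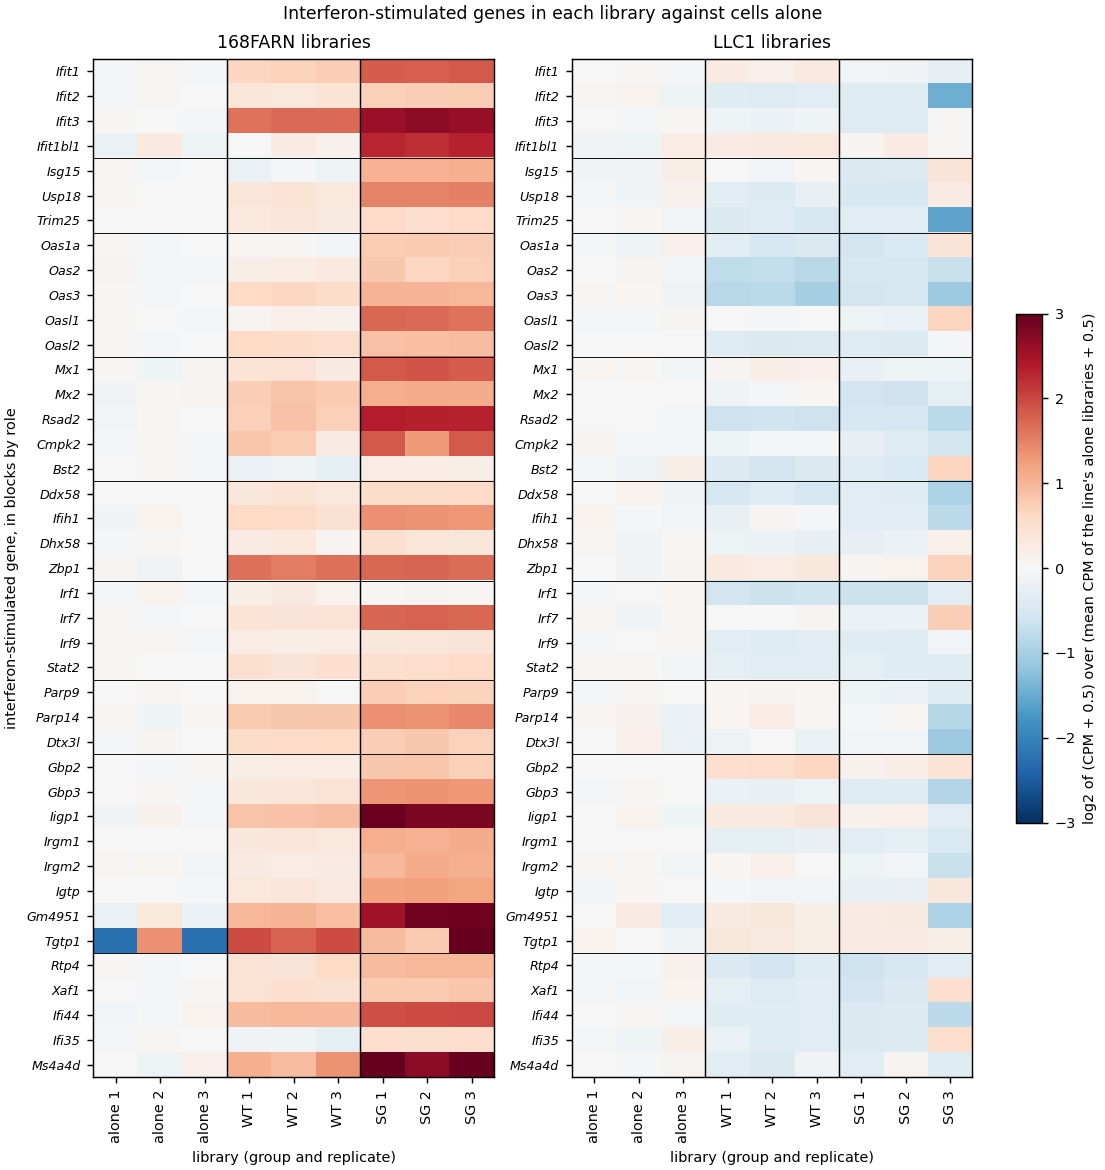
Each row is 1 of the 41 interferon-stimulated genes and each column 1 library, and colour gives the log2 ratio of CPM plus 0.5 to the mean CPM of the line's alone libraries plus 0.5, from -3 (blue) to 3 (red). Most rows of 168FARN turn redder from WT to SG, LLC1 is mostly pale, and LLC1 SG replicate 3 differs from SG replicates 1 and 2.

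The first comparison asked which members were higher in 168FARN cells grown with Prrx1-deleted fibroblasts than in both other groups. This held for 37 of the 41 members, where 9.93% of all genes tested did so, and the same SG libraries enter both comparisons. Against alone, 39 members were higher in SG (25.7% of all genes) and 0 were lower (24.1% of all genes), with a median log2 fold change of 1.09 for the members and 0.01 for all genes. At an unadjusted p under 0.05, 40 members passed that comparison (55.9% of all genes). Against WT, 37 members were higher in SG (26.9% of all genes) and 1 was lower (33.1% of all genes), with medians of 0.67 and -0.03. Between WT and alone, 34 were higher in WT (33.4% of all genes) and 3 were lower (30.7% of all genes), with medians of 0.41 and 0.01. In bulk RNA, fewer cells of a kind and less RNA per cell cannot be told apart.

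The members followed 6 patterns of calls. In 31 of them alone was lowest, WT was intermediate and SG was highest, with each of the 3 differences past the threshold, as for 2.16% of all genes. Isg15, Bst2 and Ifi35 were lower in WT than alone and highest in SG. Ifit1bl1, Oas1a and Parp9 did not pass between WT and alone and were higher in SG than in both. Zbp1 and Stat2 were higher in both cocultures than alone, Irf1 was higher in WT than in alone or SG, and Tgtp1 passed no comparison. Among the 31, Dhx58 in SG against WT was near the threshold (adjusted p = 0.0169 in edgeR) and missed it with scaling by library totals (0.0715) and without WT replicate 3 (0.0515) or SG replicate 1 (0.0816). Oasl1 in WT against alone (adjusted p = 0.0148 in edgeR) missed it with limma voom (0.0666) and without alone replicate 3 (0.0515) or WT replicate 2 (0.0538).

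**Figure D2:**
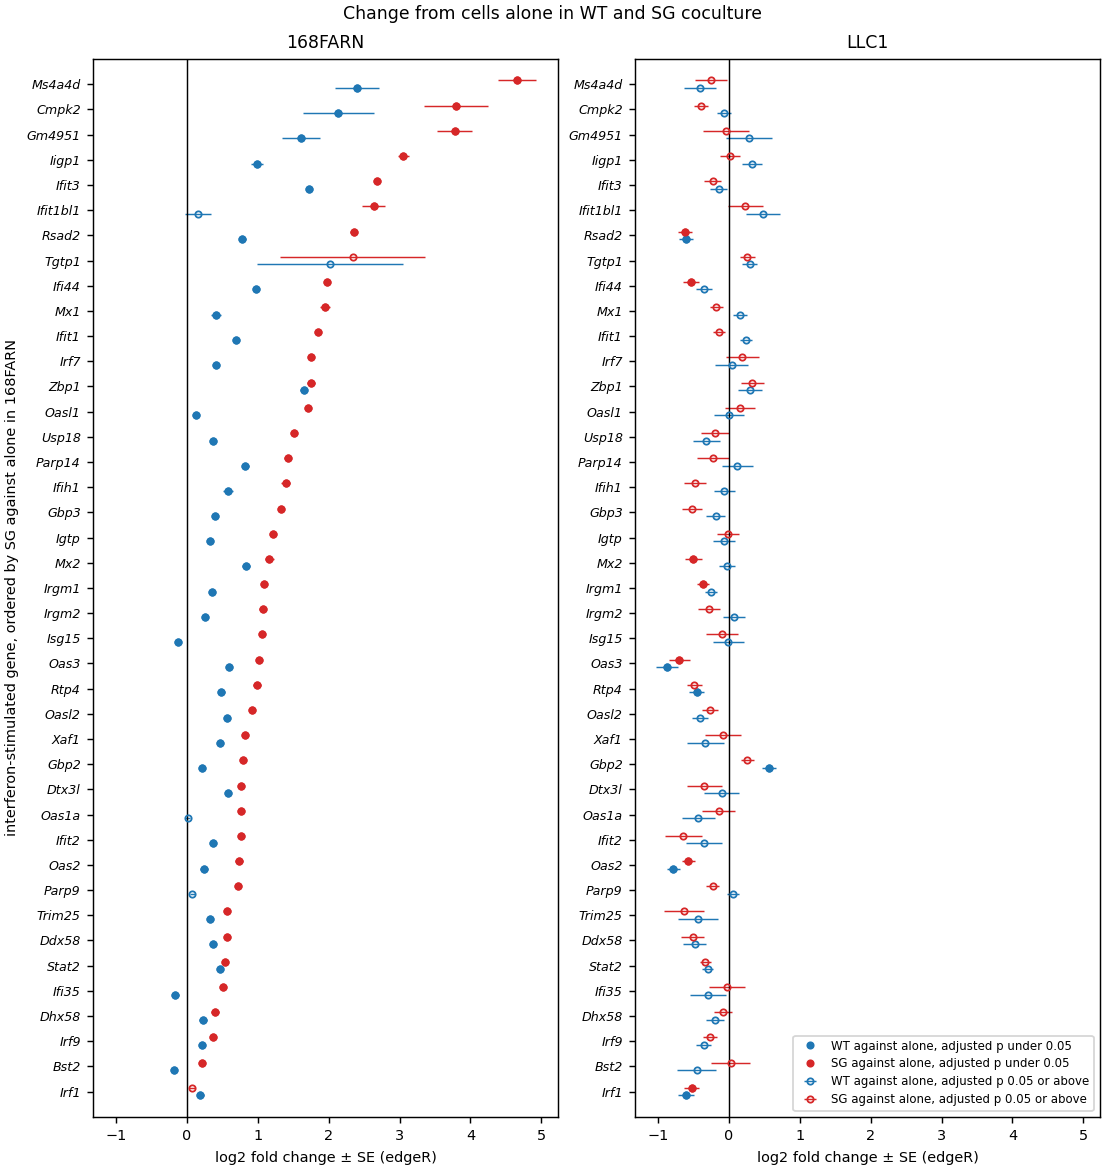
Points are log2 fold changes from cells alone with their standard errors, for WT and SG in each line (3 libraries per group), and filled points have an adjusted p under 0.05 in edgeR. In 168FARN the SG points run from 0.07 for Irf1 to 4.66 for Ms4a4d, and in LLC1 no SG point lies above 0.33.

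All 4 IFIT genes were higher in 168FARN SG than in both other groups. They lie together on chromosome 19, and their proteins bind foreign RNA and block its translation. Ifit1 (chr19:34640889-34650009) was at 29.9, 31.7 and 30.0 CPM in the alone libraries, 48.1, 49.3 and 51.2 CPM in WT and 109, 108 and 111 CPM in SG. The 3 groups did not overlap, and SG was 3.58-fold above alone (log2 SE 0.0355, n = 3 per group, adjusted p = 3.14e-11 in edgeR). Ifit3 was at 11.2, 11.0 and 10.6 CPM in the alone libraries, 35.1, 36.5 and 36.7 CPM in WT and 68.7, 72.5 and 69.3 CPM in SG. Again each group stood clear of the others, and much of the change was already present in WT, with log2 fold changes from alone of 1.72 in WT and 2.68 in SG. Ifit1bl1, a relative of Ifit1, was at 1.07, 1.71 and 1.13 CPM in the alone libraries, 1.29, 1.65 and 1.48 CPM in WT and 8.28, 7.92 and 8.496 CPM in SG. WT and alone overlapped for this gene (adjusted p = 0.486 in edgeR, and 0.0384 without alone replicate 2), and SG was 5.58-fold above WT, the largest fold between the 2 cocultures among the 41 (log2 SE 0.161, adjusted p = 2.81e-07 in edgeR). Ifit2 rose less, by 1.69-fold from alone to SG. The annotated span of Ifit1bl1 covers Ifit1, and Ifit3 has a near copy in Ifit3b, so the division of reads within this family is uncertain.

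The ISG15 system was higher in SG for all 3 of its members. ISG15 is attached to other proteins, USP18 removes it and restrains the type I receptor, and TRIM25 is a ligase that acts on the sensor RIG-I. Isg15 (chr4:156199424-156200818), with the 3 overlapping ISRE cores printed above, was at 80.1, 75.3 and 76.4 CPM in the alone libraries, 66.8, 76.0 and 69.1 CPM in WT and 159, 161 and 163 CPM in SG. Its SG libraries were the 3 highest by a wide margin, 2.08-fold above alone and 2.28-fold above WT. The lower level in WT than alone (log2 fold change -0.13, adjusted p = 0.0262 in edgeR) came with overlapping libraries. It missed the threshold with scaling by library totals (0.0636) and without alone replicate 1 (0.0993), WT replicate 1 (0.106) or WT replicate 3 (0.067). Usp18 was at 45.8, 44.9 and 44.3 CPM in the alone libraries, 58.2, 60.0 and 56.5 CPM in WT and 127, 128 and 129 CPM in SG. The groups did not overlap, and SG was 2.85-fold above alone and 2.20-fold above WT. Trim25 was 1.47-fold above alone in SG, the smallest rise of the 3.

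All 5 OAS family members were higher in SG than in both other groups. OAS1, OAS2 and OAS3 enzymes make the short oligoadenylates that switch on RNase L, and mouse OASL1 is known to restrain translation of Irf7 mRNA. Oasl1 was at 17.0, 16.4 and 16.3 CPM in the alone libraries, 17.6, 18.4 and 18.1 CPM in WT and 55.4, 55.0 and 52.0 CPM in SG. Alone and WT differed little, and SG stood 3.27-fold above alone (log2 SE 0.0377, adjusted p = 7.78e-11 in edgeR). Oas1a resembled it at a smaller scale, with a log2 difference of 0.01 ± 0.0372 (SE, n = 3 per group) between WT and alone and a 1.70-fold rise from alone to SG. Oas3 instead rose at both steps, from 52.2, 50 and 51.7 CPM alone to 77.6, 79.2 and 75.4 CPM in WT and 104, 104 and 103 CPM in SG. Oas2 and Oasl2 were 1.66-fold and 1.89-fold above alone in SG. Oas1a has near copies, Oas1g among them, so its count may include or lose reads of those genes.

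The MX proteins and other direct effectors were all higher in SG than in both other groups. Rsad2 (chr12:26442743-26456452) was at 21.3, 23.2 and 22.6 CPM in the alone libraries, 36.8, 41.6 and 36.7 CPM in WT and 116, 115 and 112 CPM in SG. The groups did not overlap, and SG was 5.11-fold above alone and 2.98-fold above WT. Cmpk2 is the neighbour of Rsad2 on chromosome 12 and encodes a nucleotide kinase. It was at 0.0822, 0.125 and 0.0824 CPM in the alone libraries, 0.568, 0.511 and 0.203 CPM in WT and 1.63, 0.953 and 1.62 CPM in SG. With 4 to 8 counts in each alone library the 13.9-fold rise to SG carried a wide error (log2 SE 0.450, n = 3 per group, adjusted p = 4.27e-05 in edgeR), although the groups did not overlap. Mx1, a dynamin-like GTPase that blocks influenza viruses, was at 5.69, 5.09 and 5.95 CPM in the alone libraries, 7.56, 7.74 and 6.80 CPM in WT and 21.3, 22.1 and 20.9 CPM in SG. SG stood clear of both other groups, 3.85-fold above alone and 2.90-fold above WT. Mx2 made most of its rise between alone and WT, with a log2 fold change of 0.83 there and 0.33 between WT and SG. Bst2, the tether that holds virions at the cell surface, was at 207, 217 and 202 CPM in the alone libraries, 181, 194 and 173 CPM in WT and 243, 245 and 234 CPM in SG. WT was the lowest group for this gene and SG the highest without overlap, 1.15-fold above alone, the smallest rise from alone among the 39 members called.

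**Figure D3:**
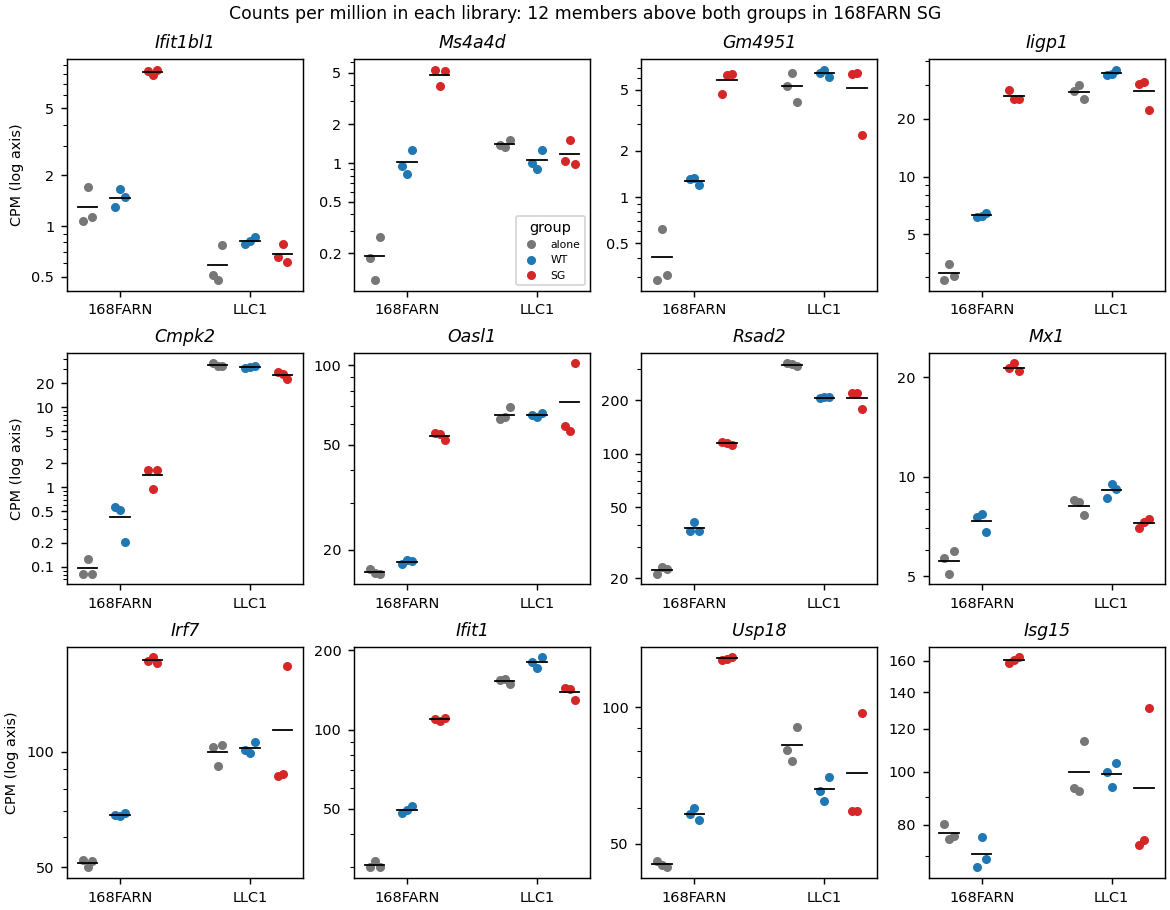
CPM in each library, on a log axis, for the 12 members with the largest rise in 168FARN SG, ranked by the smaller of the log2 fold changes against alone and against WT, with bars at the mean of 3 libraries. In 168FARN the SG points of every panel lie above all alone and WT points, and in LLC1 the groups lie closer together, with Rsad2 lower in both cocultures than alone.

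The 4 sensors of foreign nucleic acid rose from alone to SG, and 3 of them rose from WT to SG. Ifih1 (the RNA sensor MDA5) was 2.62-fold above alone in SG, Ddx58 (RIG-I) 1.47-fold and Dhx58 (LGP2) 1.32-fold. Zbp1, a sensor of Z-form nucleic acid that can start necroptosis, was at 15.5, 13.7 and 14.8 CPM in the alone libraries, 46.8, 43.2 and 47.1 CPM in WT and 49.4, 50.02 and 47.9 CPM in SG. WT and SG lay 3.13-fold and 3.36-fold above alone, and SG against WT had a log2 difference of 0.10 ± 0.0464 (SE, n = 3 per group, adjusted p = 0.0743 in edgeR). That difference passed with limma voom (0.0447), with only the 2 groups compared (0.0207) and without alone replicate 2 (0.0424).

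The 4 transcription factors on the list divided. Irf7, which drives the interferon alpha genes, was at 52.3, 49.97 and 52.0 CPM in the alone libraries, 68.3, 67.9 and 69.2 CPM in WT and 173, 177 and 171 CPM in SG. The groups did not overlap, and SG was 3.37-fold above alone and 2.53-fold above WT (adjusted p = 1.29e-10 in edgeR for the second). Irf9, the DNA-binding part of the type I complex, was at 42.3, 42.3 and 39.9 CPM in the alone libraries, 48.3, 47.6 and 48.2 CPM in WT and 52.3, 53.5 and 54.3 CPM in SG. It rose at both steps without overlap, but by 1.29-fold in all. Stat2, its partner, was at 84.8, 81.0 and 80.9 CPM in the alone libraries, 115, 107 and 117 CPM in WT and 115, 119 and 123 CPM in SG. The cocultures overlapped for Stat2, with a log2 difference between them of 0.08 ± 0.0392 (SE, n = 3 per group, adjusted p = 0.119 in edgeR), and that difference passed without WT replicate 3 (0.0469).

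Irf1, a factor that answers interferon gamma most strongly, was at 58.4, 64.6 and 58.1 CPM in the alone libraries, 68.3, 72.5 and 65.5 CPM in WT and 63.3, 63.8 and 63.1 CPM in SG. SG lay inside the range of the alone libraries (adjusted p = 0.243 in edgeR), and that difference passed without alone replicate 2 (0.0392). SG was lower than WT with a log2 fold change of -0.12 (adjusted p = 0.0489 in edgeR). That call was lost without alone replicate 1 (0.0564) or 3 (0.0532), WT replicate 1 (0.0844) or 2 (0.182), or SG replicate 1 (0.104), 2 (0.081) or 3 (0.102). It was also lost with RLE scaling (0.0638), with no filter beyond 1 count (0.071) and with only the 2 groups compared (0.0622).

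Parp9, Parp14 and Dtx3l were all higher in SG than in both other groups. PARP9 and DTX3L form a complex that modifies proteins by ADP-ribosylation and ubiquitylation, and PARP14 is a related enzyme. Parp14 was at 14.2, 12.5 and 14.2 CPM in the alone libraries, 23.9, 24.2 and 24.1 CPM in WT and 36.0, 35.4 and 37.8 CPM in SG. It rose at both steps without overlap, 2.68-fold in all. Parp9 and Dtx3l have start sites close together on chromosome 16, and they took different steps. Parp9 passed in the comparisons with SG, with log2 fold changes of 0.07 from alone to WT (adjusted p = 0.0964 in edgeR, 0.0265 with library totals and 0.021 without WT replicate 3) and 0.64 from WT to SG. Dtx3l had 0.58 from alone to WT and 0.18 from WT to SG.

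Of the 8 guanylate-binding proteins and immunity-related GTPases, which attack the vacuoles of intracellular parasites, 7 were higher in SG than in both other groups. Iigp1 was at 2.90, 3.505 and 3.03 CPM in the alone libraries, 6.14, 6.25 and 6.47 CPM in WT and 28.1, 25.3 and 25.4 CPM in SG. The groups did not overlap, and SG was 8.29-fold above alone and 4.18-fold above WT (adjusted p = 3.41e-09 in edgeR for the second). Gm4951, a gene of the same GTPase family, was at 0.288, 0.623 and 0.309 CPM in the alone libraries, 1.32, 1.33 and 1.20 CPM in WT and 4.73, 6.25 and 6.40 CPM in SG. SG was 13.7-fold above alone (log2 SE 0.243), from 14 to 40 counts in the alone libraries. Irgm2 and Igtp, whose upstream stretches held the GAS and ISRE cores side by side, were 2.09-fold and 2.32-fold above alone in SG. Irgm1, Gbp2 and Gbp3 were 2.13-fold, 1.74-fold and 2.51-fold above alone.

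Tgtp1 was the member of that group that passed no comparison. It was at 0, 5.61 and 0 CPM in the alone libraries, 8.70, 7.56 and 8.77 CPM in WT and 4.07, 3.61 and 23.3 CPM in SG. The alone and SG replicates differed from each other far more than those of WT. Its near-identical copy Tgtp2, which is not on the list, was at 7.91, 7.99 and 7.93 CPM in the alone libraries, 13.3, 12.9 and 13.2 CPM in WT and 37.8, 39.1 and 38.5 CPM in SG, without overlap between groups, and reads may have been divided between the copies. Without alone replicate 2, Tgtp1 passed in WT against alone (0.00301) and in SG against alone (0.00348).

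The remaining 5 members were all higher in SG than in both other groups. Ms4a4d encodes a membrane-spanning protein of the MS4A family, and was at 0.185, 0.125 and 0.268 CPM in the alone libraries, 0.952, 0.818 and 1.26 CPM in WT and 5.28, 3.95 and 5.13 CPM in SG. It had the largest rise from alone of the 41, 25.3-fold (log2 SE 0.273, n = 3 per group, adjusted p = 1.5e-07 in edgeR), from a base of 8 to 13 counts per alone library. Ifi44 was at 27.3, 28.1 and 30.9 CPM in the alone libraries, 55.7, 57.4 and 56.8 CPM in WT and 111, 114 and 114 CPM in SG. It rose in steps of similar size, 1.97-fold to WT and 1.99-fold more to SG. Rtp4 and Xaf1 were 1.98-fold and 1.75-fold above alone in SG. Ifi35 was at 43.5, 46.1 and 43.7 CPM in the alone libraries, 41.2, 40.9 and 36.7 CPM in WT and 63.1, 61.7 and 64.2 CPM in SG, with WT lowest and SG highest and no overlap between the groups.

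In LLC1, cultured with a different kind of fibroblast, most of the members that passed the test were lower in coculture, and how many passed depended on the method. With all 9 libraries, 1 member was higher in WT than alone (4.25% of all genes) and 5 were lower (4.58% of all genes), with a median log2 fold change of -0.19. In SG against alone, 0 were higher (2.01% of all genes) and 7 were lower (2.31% of all genes), with a median of -0.23. In SG against WT edgeR called 0 higher (0% of all genes) and 0 lower (0.0544% of all genes), with 10 members at an unadjusted p under 0.05 (as for 1545 of the 12873 genes), while DESeq2 called 5 in either direction (3.89% of all genes) and limma voom with sample weights 21 (36.4% of all genes). In WT against alone DESeq2 called 12 members in either direction (17.7% of all genes) and voom 27 (58.6% of all genes), and in SG against alone 13 (15.1% of all genes) and 34 (48.0% of all genes). In edgeR no member was above both alone and WT in SG, nor was any other gene (0%). Markers of other cells moved with these groups too. The summed leukocyte markers were at 26.8 to 29.2 CPM alone, 49.5 to 52.9 CPM in WT and 53.0 to 90.4 CPM in SG. Ptprc had no more than 3 counts. Cd68 was 2.26-fold and 2.85-fold above alone in WT and SG, with 38.5, 36.0 and 63.6 CPM in the SG libraries. Without SG replicate 3 its log2 fold changes from alone were 1.19 in WT (adjusted p = 8.58e-06 in edgeR) and 1.21 in SG (2.89e-05). SG against WT then had 0.02 (0.856). The fibroblast markers divided. Dcn was 10.5-fold and 7.51-fold above alone in WT and SG. Col1a2 was 282-fold and 8.66-fold above alone, from at most 5 counts in an alone library. Col1a1 was 22.8-fold above alone in WT, and its 1.79-fold in SG did not pass (adjusted p = 0.15 in edgeR). Pdgfrb was at 0.427 and 0.539 times its alone level. The fibroblast sum, mostly Col3a1, was 1637 to 1719 CPM alone, 1183 to 1206 CPM in WT and 1479.9 to 1567 CPM in SG. Their part in the LLC1 results was not tested.

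SG replicate 3 weighed on these LLC1 counts. It was the highest of the 9 LLC1 libraries for 11 members (38.2% of all genes) and the lowest for 17 (35.3% of all genes). The members that it raised above SG replicates 1 and 2 by over 0.3 on the log2 scale (15 members, or 36.6%, against 34.0% of all genes) had a median transcript length of 2022 bases, and those that it lowered as much (12 members, or 29.3%, against 33.2% of all genes) had a median of 3846 bases. Over the 41 members Spearman's rho between its deviation and the length of the longest coding transcript was -0.748, and over 11182 genes it was -0.667, both across genes, which are not independent replicates. Bst2, with 252, 243 and 519 CPM in the SG libraries, and Trim25, with 188, 191 and 79.6 CPM, show the 2 directions.

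**Figure D4:**
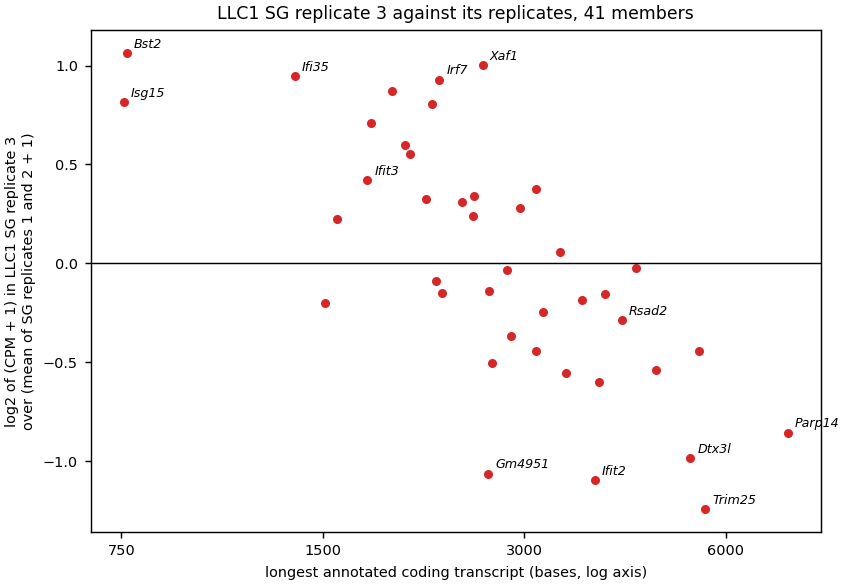
Each point is a gene in LLC1, with the length of its longest coding transcript on the x axis and, on the y axis, the log2 difference in CPM plus 1 between SG replicate 3 and the mean of SG replicates 1 and 2. Only the 41 members are drawn, and Spearman's rho was -0.748 over them and -0.667 over 11182 genes.

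Without SG replicate 3, more LLC1 members passed and most of them were lower in coculture. In WT against alone 5, Ifit1, Zbp1, Gbp2, Iigp1 and Tgtp1, were higher (22.0% of all genes) and 19 lower (22.2% of all genes). In SG against alone 1, Gbp2, was higher (12.5% of all genes) and 26 were lower (14.2% of all genes). In SG against WT 2, Oas2 and Oas3, were higher (2.94% of all genes) and 6, Ifit1, Isg15, Mx1, Mx2, Parp9 and Gbp2, were lower (2.75% of all genes). None was above both alone and WT, where 0.634% of all genes were. The 6 members past in WT against alone and the 7 past in SG against alone with all libraries also passed in the same direction without SG replicate 3. Leaving out any 1 of the other 8 libraries instead left 1 to 5 members past in WT against alone, 0 to 2 in SG against alone and 0 in SG against WT.

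With all 9 libraries, the members called in LLC1 were lower in coculture than alone, apart from Gbp2. Oas3 was at 166, 167 and 149.5 CPM in the alone libraries, 90.5, 92.1 and 80.9 CPM in WT and 109.9, 111 and 75.6 CPM in SG. All 6 coculture libraries were below all alone libraries, with log2 fold changes of -0.87 ± 0.153 in WT (SE, adjusted p = 0.0131 in edgeR) and -0.70 ± 0.152 in SG (0.0426). Without SG replicate 3 these were -0.86 (5.54e-05) and -0.535 (0.00155). Oas2 was at 43.1, 46.5 and 41.5 CPM in the alone libraries, 25.7, 25.8 and 24.4 CPM in WT and 30.5, 30.3 and 27.2 CPM in SG. It too was lower in both cocultures without overlap, by log2 fold changes of -0.79 (adjusted p = 0.00338 in edgeR) and -0.57 (0.0176), or -0.77 (4.16e-05) and -0.51 (0.000887) without SG replicate 3. Rsad2 was at 321, 317 and 311 CPM in the alone libraries, 205, 208 and 207 CPM in WT and 219, 218 and 179 CPM in SG. It was 0.653 times its alone level in WT (adjusted p = 0.00979 in edgeR) and 0.649 times in SG (0.0175). Without SG replicate 3 its adjusted p was 4.36e-05 in WT and 0.000344 in SG (edgeR). Irf1 was at 82.3, 82.8 and 87.1 CPM in the alone libraries, 56.0, 53.5 and 55.7 CPM in WT and 53.6, 53.7 and 67.5 CPM in SG. All cocultures were below alone, with adjusted p = 0.014 in WT and 0.037 in SG (edgeR), or 5.89e-05 and 0.000187 without SG replicate 3.

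Of the other LLC1 calls, Gbp2 was at 43.7, 43.5 and 43.5 CPM in the alone libraries, 62.2, 62.9 and 67.6 CPM in WT and 47.9, 50.3 and 58.1 CPM in SG. WT was the highest group without overlap, 1.47-fold above alone (adjusted p = 0.0125 in edgeR, or 8.29e-05 without SG replicate 3). Rtp4 was lower in WT than alone (log2 fold change -0.46, adjusted p = 0.0414 in edgeR), and in SG it had -0.49 (0.0504, or 0.0468 with the replicate number as a block). Mx2, Irgm1 and Ifi44 were lower in SG than alone with adjusted p of 0.0481, 0.0466 and 0.0384 in edgeR, and all 3 missed the threshold with that block (0.0546, 0.0686 and 0.0539). Irf7, the factor with a 3.37-fold rise in 168FARN, was at 103, 91.9 and 104 CPM in the alone libraries, 101, 99.5 and 106 CPM in WT and 86.6, 87.7 and 167 CPM in SG in LLC1. Its SG replicates 1 and 2 were the lowest of the 9 libraries and SG replicate 3 the highest.

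Most LLC1 calls also rested on having every library. In WT against alone, Oas3, Rsad2, Irf1 and Rtp4 missed the threshold when any 1 of the alone or WT libraries was left out, with a highest adjusted p of 0.157 (Rtp4 without WT replicate 2), and Rtp4 also without SG replicate 1 (0.0517) or 2 (0.064). Gbp2 missed it without alone replicate 1 (0.0693) or 2 (0.0686) and without WT replicate 1 (0.0556) or 3 (0.0621). Oas2 in WT against alone passed whichever library was left out. In SG against alone, all 7 members missed the threshold without any 1 of the alone libraries and without WT replicate 1 or 2, with adjusted p from 0.0537 (Oas2 without WT replicate 2) to 0.204 (Irgm1 without alone replicate 2).

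The difference between the lines was tested directly, in 1 fit over both tables with 14369 genes. The change from alone to SG was more positive in 168FARN for 38 of the 41 members (6.68% of all genes), and Bst2, Ifi35 and Tgtp1 did not pass. From alone to WT it was more positive for 25 (15.8% of all genes) and less positive for 1, Gbp2 (13.7% of all genes). From WT to SG it was more positive for 24 (8.25% of all genes). The median differences in log2 fold change over the members were 1.47, 0.69 and 0.87. Ms4a4d had the widest gap from alone to SG, 4.92 ± 0.372 (SE, adjusted p = 4.16e-07 in edgeR), and Rsad2 a gap of 2.99 ± 0.119 (6.81e-10). Without LLC1 SG replicate 3, over 14644 genes, the counts were 40 (13.8% of all genes) from alone to SG, 31 (26.0% of all genes) and 1 less positive (26.5% of all genes) from alone to WT, and 33 (21.7% of all genes) from WT to SG.

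The lines also began at different levels, on tables that were scaled separately. The median member stood at 29.8 CPM in 168FARN alone, 42.4 CPM in WT and 62.4 CPM in SG, and in LLC1 at 65.0, 56.1 and 53.0 CPM. For 36 members every LLC1 alone library was above every 168FARN alone library, where 37.7% of the 12149 genes tested in both lines were, and for 3 every one was below (45.8% of those genes). Against 168FARN SG the LLC1 alone libraries were all above for 17 members (38.2% of those genes) and all below for 19 (46.0%). Rsad2 was among the former, at 321, 317 and 311 CPM in LLC1 alone against 116, 115 and 112 CPM in 168FARN SG.

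The rest of the pathway was read from a list of 114 genes. Of 21 interferon genes only Ifnb1 and Ifnz were tested in either line, and the other 19 had at most 8 counts in any library. Ifnb1, which encodes interferon beta, was at 0.0616, 0.0623 and 0.206 CPM in the alone libraries, 0.0995, 0.0584 and 0.162 CPM in WT and 0.355, 0.485 and 0.288 CPM in SG in 168FARN. All SG libraries lay above all others, 3.48-fold above alone (log2 SE 0.536, adjusted p = 0.0165 in edgeR) and 3.62-fold above WT (0.01), on at most 29 counts in a library. In LLC1 it was at 0.799, 0.688 and 0.937 CPM in the alone libraries, 0.509, 0.291 and 0.686 CPM in WT and 0.396, 0.529 and 0.411 CPM in SG, and no comparison passed (without SG replicate 3, adjusted p = 0.119 in WT and 0.143 in SG against alone, edgeR).

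All 5 interferon receptor genes tested in 168FARN were lower in SG than alone (24.1% of all genes) and 4 were lower than in WT (33.1% of all genes). Ifnar1, a chain of the type I receptor, had log2 fold changes of -0.26 and -0.28, and Ifngr1, of the interferon gamma receptor, -0.65 and -0.30. Their partner chains Ifnar2 and Ifngr2 had -0.225 and -0.24 from alone to SG and -0.28 and -0.23 from WT to SG. Il10rb, a chain of the interferon lambda receptor, had -0.275 from alone to SG, and it was the receptor gene that did not pass against WT (adjusted p = 0.238 in edgeR). In 168FARN WT against alone, 2 receptor genes were lower in WT (30.7% of all genes) and 0 were higher (33.4%). In LLC1 no receptor gene passed with all 9 libraries. Without SG replicate 3, 3 were lower in WT than alone (22.2% of all genes), with log2 fold changes of -0.17 for Ifnar1 (adjusted p = 0.0164 in edgeR), -0.185 for Ifnar2 (0.0353) and -0.20 for Ifngr1 (0.0329), and none passed in SG against alone or WT. Tyk2, the kinase bound to Ifnar1, was lower than alone in both cocultures of both lines, with log2 fold changes of -0.555 and -0.52 in 168FARN and -0.88 and -0.53 in LLC1, or -0.86 and -0.54 in LLC1 without SG replicate 3. The other 2 kinases of the receptors moved differently in 168FARN. Jak1 was higher in WT than alone, by 0.28 on the log2 scale (adjusted p = 1.41e-05 in edgeR), with -0.07 in SG (0.0913). Jak2 was higher than alone in both, by 0.66 in WT (2.37e-07) and 0.13 in SG (0.0312), and both were lower in SG than WT. In LLC1 neither passed with all 9 libraries, and without SG replicate 3 both were lower in WT than alone (0.0392 and 0.0202) and Jak2 in SG (0.0239).

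The adaptors and kinases of the nucleic acid sensors and the negative regulators of the pathway were divided in 168FARN. Of 9 adaptors and kinases, 4 were higher and 2 lower in SG than alone, 2 higher and 2 lower than in WT, and 3 higher and 1 lower in WT than alone. Of 7 negative regulators, 4 were higher and 1 lower in SG than alone, 2 higher and 4 lower than in WT, and 4 higher and 0 lower in WT than alone. For all genes the shares in these 3 comparisons were the 25.7% and 24.1%, 26.9% and 33.1%, and 33.4% and 30.7% given above. In LLC1 with all 9 libraries 1 adaptor or kinase was higher and 1 lower in WT than alone, and 1 negative regulator was lower. Of all LLC1 genes, 4.25% were higher and 4.58% lower in that comparison. None of these regulators or adaptors passed in the other comparisons. Without SG replicate 3, 3 adaptors and kinases were higher and 2 lower in WT than alone, 1 higher and 1 lower in SG than alone, and 2 higher in SG than WT. Of the negative regulators, 2 were higher and 2 lower in WT than alone and 1 higher and 2 lower in SG than alone. The shares of all genes higher and lower without that library were 22.0% and 22.2% in WT against alone. They were 12.5% and 14.2% in SG against alone, and 2.94% and 2.75% in SG against WT.

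**Figure D5:**
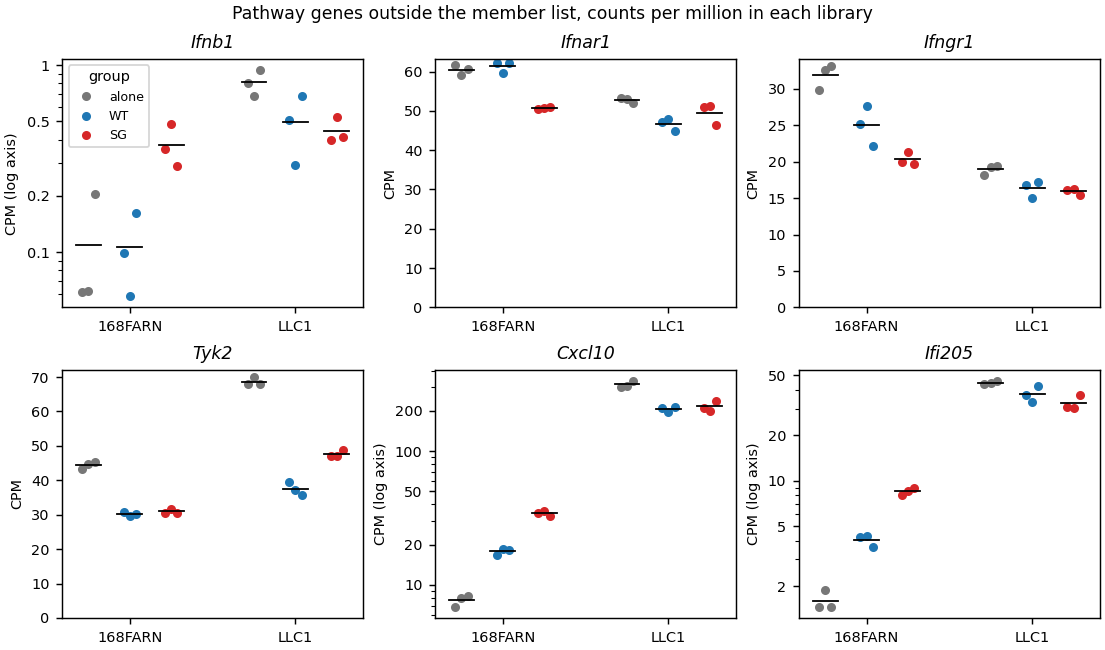
CPM in each library for Ifnb1, Ifnar1, Ifngr1, Tyk2, Cxcl10 and Ifi205, with bars at the mean of 3 libraries, in the order alone, WT, SG within each line. In 168FARN SG, Ifnb1, Cxcl10 and Ifi205 are at their highest while Ifnar1 and Ifngr1 are at their lowest, and in LLC1 Tyk2 and Cxcl10 are lower in both cocultures than alone.

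Of 62 further interferon-stimulated genes, not among the 41, that were tested in 168FARN, 54 were higher and 3 lower in SG than alone (25.7% and 24.1% of all genes). Against WT, 54 were higher and 2 lower in SG (26.9% and 33.1%), and in WT against alone 37 were higher and 9 lower (33.4% and 30.7%). In LLC1, of 61 tested, edgeR called 0 higher and 5 lower in SG than alone (2.01% and 2.31% of all genes), 0 between SG and WT, and 2 higher and 2 lower in WT than alone (4.25% and 4.58%). Without SG replicate 3 it called 3 higher and 28 lower in SG than alone (12.5% and 14.2%), 0 higher and 6 lower in SG than WT (2.94% and 2.75%), and 9 higher and 25 lower in WT than alone (22.0% and 22.2%). Cxcl10, a chemokine that attracts T cells, was at 6.88, 7.94 and 8.32 CPM in the alone libraries, 16.7, 18.5 and 18.4 CPM in WT and 34.5, 35.6 and 32.8 CPM in SG in 168FARN, 4.44-fold above alone in SG. In LLC1 it was at 304, 307 and 335 CPM in the alone libraries, 211, 196 and 215 CPM in WT and 211, 199.5 and 238 CPM in SG, lower than alone in both cocultures, with adjusted p = 0.0105 in WT and 0.026 in SG (edgeR), or 0.000238 and 0.000868 without SG replicate 3. Ifi205, a relative of the DNA sensor IFI16, was 5.26-fold above alone in 168FARN SG, and Ifi44l 19.8-fold. Tapbp, which loads peptides onto MHC class I, Ifitm2 and Ifi27l2a were the 3 lower in SG than alone, with log2 fold changes of -0.38, -0.33 and -0.31.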

How the data were processed

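RNA-seq libraries of sorted cancer cells (total RNA, TruSeq v2, paired reads) were deposited as 2 gene tables of whole-number counts with unequal totals, 1 from either line. Per the labels and the study's methods the authors made these counts with Trimmomatic, STAR and HTSeq. Reads were aligned to mm10. The methods also describe a batch correction with ComBat-seq, and whether it was applied to these tables is not stated. Whether the counting used strand is not given in the sources used here, so overlapping genes and near copies may share or lose reads. Groups were taken from the sample titles. The 41 members, the gene lists and the tests were chosen with earlier results of these data known.

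Counts were tested within each line with edgeR 4.0.16 (R 4.3.3): TMM scaling, edgeR's own filter on low counts, a quasi-likelihood fit over the 3 groups of the line, and Benjamini-Hochberg adjustment over all genes. 1 further fit over both tables tested the difference between the lines. CPM used the same scaling. The code was tested on simulated counts first. Named genes were the 12 members with the largest smaller rise in 168FARN SG, up to 3 with the largest change in each direction of each comparison, and the 4 transcription factors. The other members are named within their role groups. From the pathway list, ligands, receptors and kinases were named, with up to 5 further interferon-stimulated genes in each direction with the largest change in 168FARN SG. Marker genes were named after their values were seen. Replicates differed by more than sampling noise (chi-square per degree of freedom of at least 10.6), so each library counted once.

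Alternatives were RLE scaling, library totals, DESeq2 1.42.0, limma 3.58.1 (voom with sample weights), other filters, only the 2 groups compared, the replicate number as a block, and each library left out. Replicate numbers come from the titles, which name no shared batch or day. Correlations of same-numbered deviations were 0.226, 0.474 and 0.669 in LLC1 SG against alone, the single comparison where all 3 pairs passed 0.1, and elsewhere at least 1 pair did not. Intervals and errors cover the spread between libraries only. Fold changes of genes with few counts depend on the prior count of the fit. Some genes of the pathway list are not reported here.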

Additional observations from a re-analysis of the deposited data

Results flagged for a closer look

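Members were listed for a closer look where the change in 168FARN minus the change in LLC1 passed its own test in edgeR. From alone to SG, 38 members passed. Among the 12 named for their rise in 168FARN SG, the difference on the log2 scale was 4.92 for Ms4a4d, 4.20 for Cmpk2, 3.835 for Gm4951, 3.06 for Iigp1, 2.99 for Rsad2 and 2.43 for Ifit1bl1. It was 2.14 for Mx1, 1.997 for Ifit1, 1.73 for Usp18, 1.59 for Irf7, 1.58 for Oasl1 and 1.18 for Isg15.

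From alone to WT, 26 members passed. The difference was 2.805 for Ms4a4d, 2.21 for Cmpk2, 1.87 for Ifit3, 1.46 for Oas3, 1.39 for Rsad2 and 1.025 for Oas2. Gbp2 was the exception, at -0.36. From WT to SG, 24 members passed. The lines were mixed with different kinds of fibroblast and counted in separate tables, so line, fibroblast and table cannot be told apart. The check for a single outlying library was made only on groups of 4 or more, so none was made here. LLC1 SG replicate 3 nevertheless stood apart from SG replicates 1 and 2, with a chi-square per degree of freedom of 778 and 722 against 25.7 between those 2.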

How the results depend on the processing

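In 168FARN the counts of members past the threshold held: 36 to 39 of 41 in WT against alone, 39 to 41 in SG against alone, 36 to 39 in SG against WT and 36 to 38 above both, and no member value reversed. A minimum of 10 counts in every library left 38 members to test, of which 35, 37, 36 and 35 passed. In LLC1 the counts depended on the method, and the cause was not tested. WT against alone gave 12 with DESeq2, 27 with voom, 24 with only the 2 groups compared and 1 to 24 with a library left out. SG against alone gave 13 with DESeq2, 34 with voom, 0 with only the 2 groups compared, 3 with no filter and 0 to 27 with a library left out. SG against WT gave 5 with DESeq2, 21 with voom and 0 to 8 with a library left out. Among fits with a library left out, the highest count was without SG replicate 3 in all 3 comparisons. No LLC1 member was above both groups under any alternative. Below both groups were 3 members without SG replicate 3 (65 of the 13088 genes), 1 with DESeq2 and 14 with voom. The line difference passed for 22 to 37 members (WT against alone), 36 to 40 (SG against alone) and 24 to 33 (SG against WT), and with that minimum for 24, 36 and 22 of 38.

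Directions reversed in LLC1 with voom in SG against WT for Usp18 (-0.15), Oasl1 (-0.16), Rsad2 (0.086), Ddx58 (0.17), Zbp1 (-0.20), Irf7 (-0.22), Igtp (-0.16) and Xaf1 (-0.21), and in SG against alone for Oasl1 (-0.13), Bst2 (-0.355) and Irf7 (-0.19). Bst2 in SG against alone ran from -0.42 without LLC1 SG replicate 3 to 0.213 without SG replicate 2, and its line difference in SG against WT from -0.246 without SG replicate 2 to 0.39 without SG replicate 3, with 0.36 under voom. None of these had passed the threshold in the main fits. Without LLC1 SG replicate 3, Bst2 passed in SG against alone (adjusted p = 0.0171 in edgeR) and in that line difference (0.0101). Without that library the other genes named here took their voom signs in edgeR, with none of them passing there. When replicate numbers entered as a block, member counts were 37, 39, 38 and 37 above both in 168FARN, 6, 5, 0 and 0 in LLC1, and 27, 38 and 25 for the line difference. In LLC1 the pairing changed the calls of Mx2, Irgm1, Ifi44 and Rtp4 in SG against alone. Counting depth limits Cmpk2, Ms4a4d, Gm4951 and Ifnb1 in 168FARN.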
